A study of Mus musculus with 4 samples.

Results

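Ccn1, Ccn2, Ccn4 and Ccn5 encode CCN proteins, secreted matricellular proteins that settle in the extracellular matrix and signal to cells without forming its fibres. These 4 genes were picked by symbol out of the 21885 genes of the deposited spatial count matrices, which hold 6 CCN genes in all. The choice rested on their measured levels in these same heart sections, between sections and between spots of differing cardiomyocyte content. Those levels are therefore described here without a test, and the reported tests of the members are those in which spots were matched on their cardiomyocyte content. Fits without matching, which follow the gradient the genes were chosen on, serve only to show what the matching changes. The infarct zone was tested against the remote zone, without matching, for other genes alone.

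As background, Ccn1 and Ccn2 (also known as Cyr61 and Ctgf) are standard target genes of the YAP and TAZ co-activators, which act through TEAD transcription factors when cells are stretched or spread, and Ccn2 is also induced by TGF-β. Ccn4 and Ccn5 (also known as Wisp1 and Wisp2) were named for their induction by Wnt signalling. CCN proteins act on cells through integrins, heparan sulfate proteoglycans and LRP receptors, and CCN5 lacks the C-terminal domain that other members of the family carry. In the infarcted heart, CCN2 is known as a product of activated fibroblasts and as a companion of scar formation.

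The samples were 10 µm fresh-frozen sections, 1 per heart, of Collagen1a1-GFP+ mice aged 8 to 12 weeks, placed on Visium slides whose spots capture polyadenylated RNA and may each cover several cells. In these mice a collagen promoter drives GFP in fibroblasts, and the control carried this reporter as well. The control was 1 uninjured heart. The others were infarcted by permanent ligation of the left anterior descending coronary artery and taken at day 3 (3 dpi, 1 heart) or day 5 (5 dpi, 2 hearts). The control and 3 dpi thus had no replicate, and the 5 dpi hearts are named by their sex labels, which the data go against: Y-linked genes gave 704 UMIs in the female-labelled heart and 1 in the male-labelled heart, with 0 in both other sections. Where a pair of 5 dpi values stands together, the female-labelled heart comes first.

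After the spot filter, 1146 to 1741 spots per section remained, with medians of 4967.5 to 6935 UMIs, and mitochondrial transcripts made up 40.1% of UMIs in the control against 13.3% to 21.4% after infarction. Levels are given as CPM, the UMIs of a gene per 1000000 UMIs, with the 13 mitochondrially encoded genes left out of the total. Their 95% intervals are exact Poisson intervals, which cover counting error only. The median of 5881 genes lay above the control by 0.46 on the log2 scale at 3 dpi, and by 0.52 and 0.38 in the pair of 5 dpi hearts, so the folds below are read against that shift. In summed spots, fewer cells of a type and less RNA per cell cannot be told apart.

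Among the members, Ccn1 was the gene with an entry in the RefSeq promoter table of build GRCm38.p6. Its upstream stretch is shown because the family's link to YAP and TEAD runs through such sites: the 250 bases before the transcription start lie on the minus strand at chr3:145649986-145650235. Capitals mark CATTCC, the core of the TEAD (MCAT) motif, which was searched on both strands (reverse complement GGAATG) and found 1 time, starting 103 bases before the start.
Ccn1: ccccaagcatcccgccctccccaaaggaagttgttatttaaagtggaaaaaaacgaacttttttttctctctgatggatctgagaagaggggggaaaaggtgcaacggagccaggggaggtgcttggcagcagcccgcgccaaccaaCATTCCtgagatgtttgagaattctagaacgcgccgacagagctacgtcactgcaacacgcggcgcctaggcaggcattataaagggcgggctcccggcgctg
Of 32851 promoters in that table, 12.6% held the same 6 letters in the window, so the match is a description of the sequence and no evidence of binding.

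All 4 genes were higher in each infarcted section than in the control, and they differed in when. Ccn1 stood at 32.1 CPM in the control (95% interval 26.6 to 38.3), 104 CPM at 3 dpi, and 229 and 158 CPM in the pair of 5 dpi hearts. Ccn2 stood at 30.2 CPM in the control (24.9 to 36.3), 383 CPM at 3 dpi, and 494 and 375 CPM in the 5 dpi hearts. Ccn2 was thus near its 5 dpi level already at 3 dpi: the female-labelled 5 dpi heart lay 1.29-fold above 3 dpi (95% interval 1.23 to 1.35) and the male-labelled heart at 0.98 of it (0.933 to 1.03).

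Ccn5 behaved otherwise in time. It gave 10 UMIs in the control, or 2.67 CPM (1.28 to 4.91), 28.7 CPM at 3 dpi, and 244 and 226 CPM in the 5 dpi hearts. Both 5 dpi sections lay far above the 3 dpi section, by 8.50-fold (7.44 to 9.75) and 7.88-fold (6.89 to 9.05), whereas the same ratios were 2.21 and 1.52 for Ccn1 and 1.90 and 1.21 for Ccn4. Between hearts of 5 dpi the spread was narrower for Ccn5, at 235 ± 12.5 CPM (mean ± SD, n = 2), than for Ccn1, at 194 ± 50.5 CPM. With 1 heart at 3 dpi, the difference between days cannot be told apart from that between hearts.

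Ccn4 was almost absent from the uninjured section, with 1 UMI among 3742105. It reached 43.5 CPM (364 UMIs) at 3 dpi, 82.5 CPM (787 UMIs) in the female-labelled 5 dpi heart and 52.6 CPM (437 UMIs) in the male-labelled heart. The ratio of 3 dpi to control was 163, with a counting interval of 29.0 to 6442 that the single control UMI leaves wide. For the other members the same ratio was 3.24 for Ccn1 (2.68 to 3.96), 12.7 for Ccn2 (10.5 to 15.4) and 10.7 for Ccn5 (5.73 to 22.7).

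**Figure D1:**
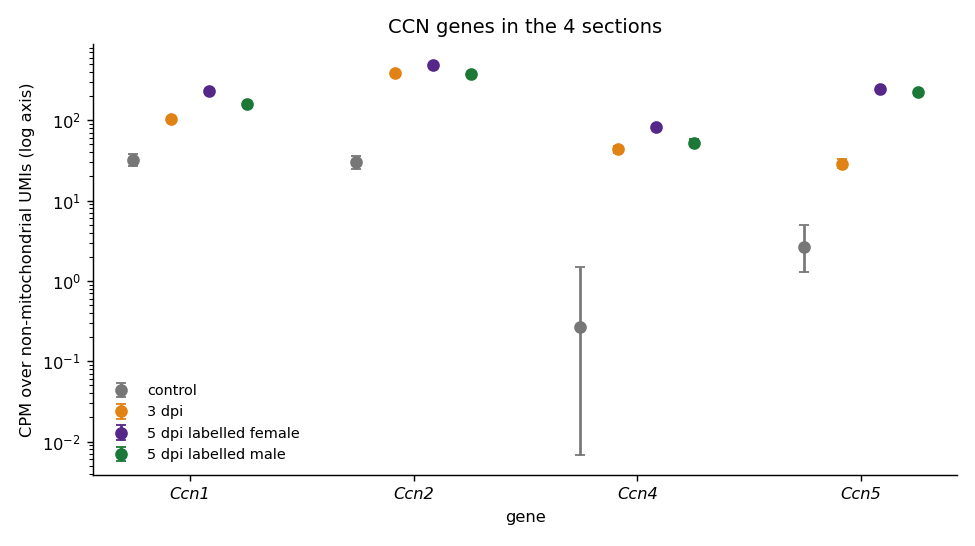
Level of each CCN gene in the 4 sections, in CPM over non-mitochondrial UMIs on a log axis, with points for sections and bars for exact 95% Poisson intervals. The control is lowest for each gene, Ccn2 is near its 5 dpi level at 3 dpi, and Ccn5 stands at 28.7 CPM at 3 dpi against 244 and 226 CPM at 5 dpi.

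The cardiomyocyte content of a spot was measured as the share of its non-mitochondrial UMIs from 12 cardiomyocyte markers, scaled to the section's 90th percentile, and cut into 5 bins. Under this measure the 4 genes split in shape. Ccn2 was highest in spots that still held some cardiomyocyte RNA: at 3 dpi its level ran 323, 568, 583, 347 and 107 CPM from the lowest bin (under 0.1) to the highest (0.75 and more). In the female-labelled 5 dpi heart it ran 479, 686, 595, 582 and 242 CPM, and in the male-labelled heart 451, 684, 571, 317 and 115 CPM. In all 3 infarcted sections the second bin (0.1 to 0.25) thus lay above the first.

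Ccn5 instead fell from the first bin on at 5 dpi. It ran 325, 261, 120, 71.9 and 47.3 CPM in the female-labelled heart and 437, 259, 156, 48.0 and 17.1 CPM in the male-labelled heart. At 3 dpi the same bins held 49.8, 28.3, 25.1, 27.0 and 12.5 CPM, a flatter course at a lower level.

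Ccn4 fell from bin to bin in each infarcted section, and Ccn1 lay between the shapes of Ccn2 and Ccn5. Ccn4 was highest in the first bin of each infarcted section, at 70.9 CPM at 3 dpi and 109 and 84.5 CPM in the pair of 5 dpi hearts, and its highest bin held 7.39, 14.0 and 5.69 CPM. Ccn1 was highest in the second bin at 3 dpi (147 CPM against 118 in the first) and in the 5 dpi male-labelled heart (234 against 221), and in the first bin of the female-labelled heart (274 against 248). In each section the intervals of these first 2 bins overlapped.

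Taken as low (under 0.5) over high (0.5 and more) share, the log2 difference averaged 2.20 ± 0.27 for Ccn4, 1.26 ± 0.22 for Ccn1, 1.04 ± 0.52 for Ccn2 and 2.28 ± 1.43 for Ccn5 (mean ± SD over the 3 infarcted sections). The wide spread of Ccn5 comes from its values of 0.83 at 3 dpi and 2.32 and 3.69 at 5 dpi. Fibroblast, macrophage and smooth muscle markers moved along the same bins. In the 5 dpi male-labelled heart, the 7 fibroblast markers summed to 20362 CPM in the first bin and 2279 CPM in the last. The 8 macrophage markers summed to 13055 and 1421 CPM, and the smooth muscle markers to 1903 and 480 CPM. Mitochondrial transcripts rose from 1.23% to 28.7% of UMIs between the same bins, and the part of each in the CCN pattern was not tested.

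**Figure D2:**
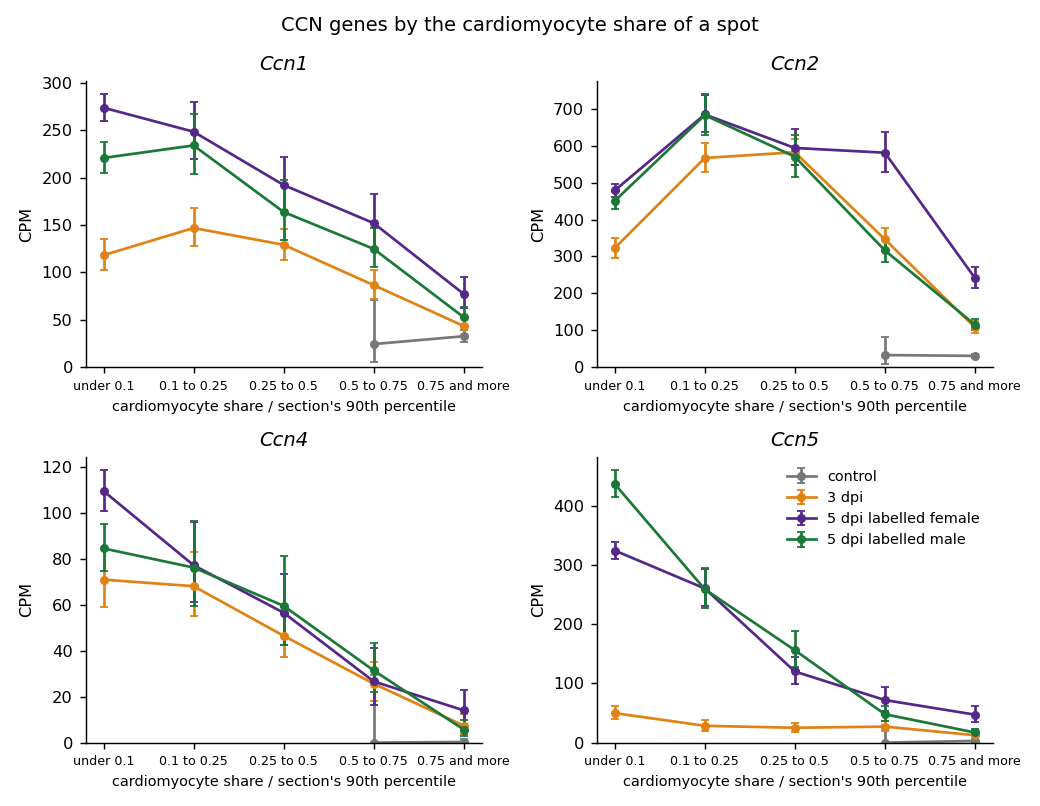
Level of each CCN gene in CPM against the cardiomyocyte share of the spots relative to the 90th percentile of the section, in 5 bins, with a line per section and bars for exact 95% Poisson intervals. Ccn2 peaks in the middle bins, whereas Ccn5 at 5 dpi falls from 325 and 437 CPM in the first bin to 47.3 and 17.1 CPM in the last, and control spots fill the upper 2 bins alone.

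The balance between Ccn5 and Ccn2 gives this contrast in 1 number. Ccn5 held 7.49 UMIs per 100 Ccn2 UMIs at 3 dpi (95% interval 6.54 to 8.54), against 49.3 (46.9 to 51.9) and 60.2 (56.8 to 63.8) in the pair of 5 dpi hearts. Within the male-labelled heart it went from 96.9 per 100 in the first bin (90.1 to 104) to 37.9, 27.3, 15.2 and 14.9 in the bins above. In the female-labelled heart it went from 67.7 to 38.0, 20.2, 12.4 and 19.6. At 3 dpi the course was U-shaped, with 15.4 in the first bin, 4.30 in the middle bin (3.15 to 5.74) and 11.6 in the last (7.12 to 18.1). The control, with 10 and 113 UMIs, gave 8.85 (4.13 to 16.9).

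In zones drawn on the tissue, the infarct zone (connected patches of at least 10 spots under 0.5 of the share) held most UMIs of the 4 genes. It took 73.8% of Ccn5 UMIs at 3 dpi and 94.4% and 94.8% in the pair of 5 dpi hearts, while holding 59.6%, 78.9% and 58.2% of all non-mitochondrial UMIs. For Ccn4 the same shares were 84.1%, 94.2% and 88.6%, and for Ccn1 73.9%, 89.9% and 79.8%. For Ccn2 they were 75.8%, 83.2% and 79.3%, the lowest of the 4 genes in both hearts of 5 dpi.

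Outside the infarct, all 4 genes also stood above the control. In the remote zone, more than 4 spot steps from the infarct zone, Ccn2 reached 114 CPM at 3 dpi, then 238 and 156 CPM, or 3.76, 7.87 and 5.16 times the level of the uninjured section. Ccn5 there was at 14.3, 52.5 and 22.6 CPM, or 5.35, 19.7 and 8.44 times a control level that rests on 10 UMIs, and Ccn4 was at 10.5, 14.3 and 7.65 CPM against the single control UMI. In border spots within 2 steps of the infarct Ccn2 stood at 324, 548 and 309 CPM, and in the female-labelled heart this border held as much as the infarct zone itself, at 521 CPM. Ccn1 was less raised in the remote zone, at 50.4, 71.6 and 65.3 CPM, or 1.57, 2.23 and 2.04 times the control. In the highest bin of the cardiomyocyte share, a set of spots drawn by share and not by zone, the fibroblast markers summed to 2837 CPM at 3 dpi and to 3985 and 2279 CPM at 5 dpi, against 1134 CPM in that bin of the control. Macrophage markers summed to 1664, 1944 and 1421 CPM there, against 867 CPM in the control. Mitochondrial transcripts made up 39.0%, 40.8% and 28.7% of UMIs, against 40.3% in the control. The part of these in the CCN levels was not tested.

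**Figure D3:**
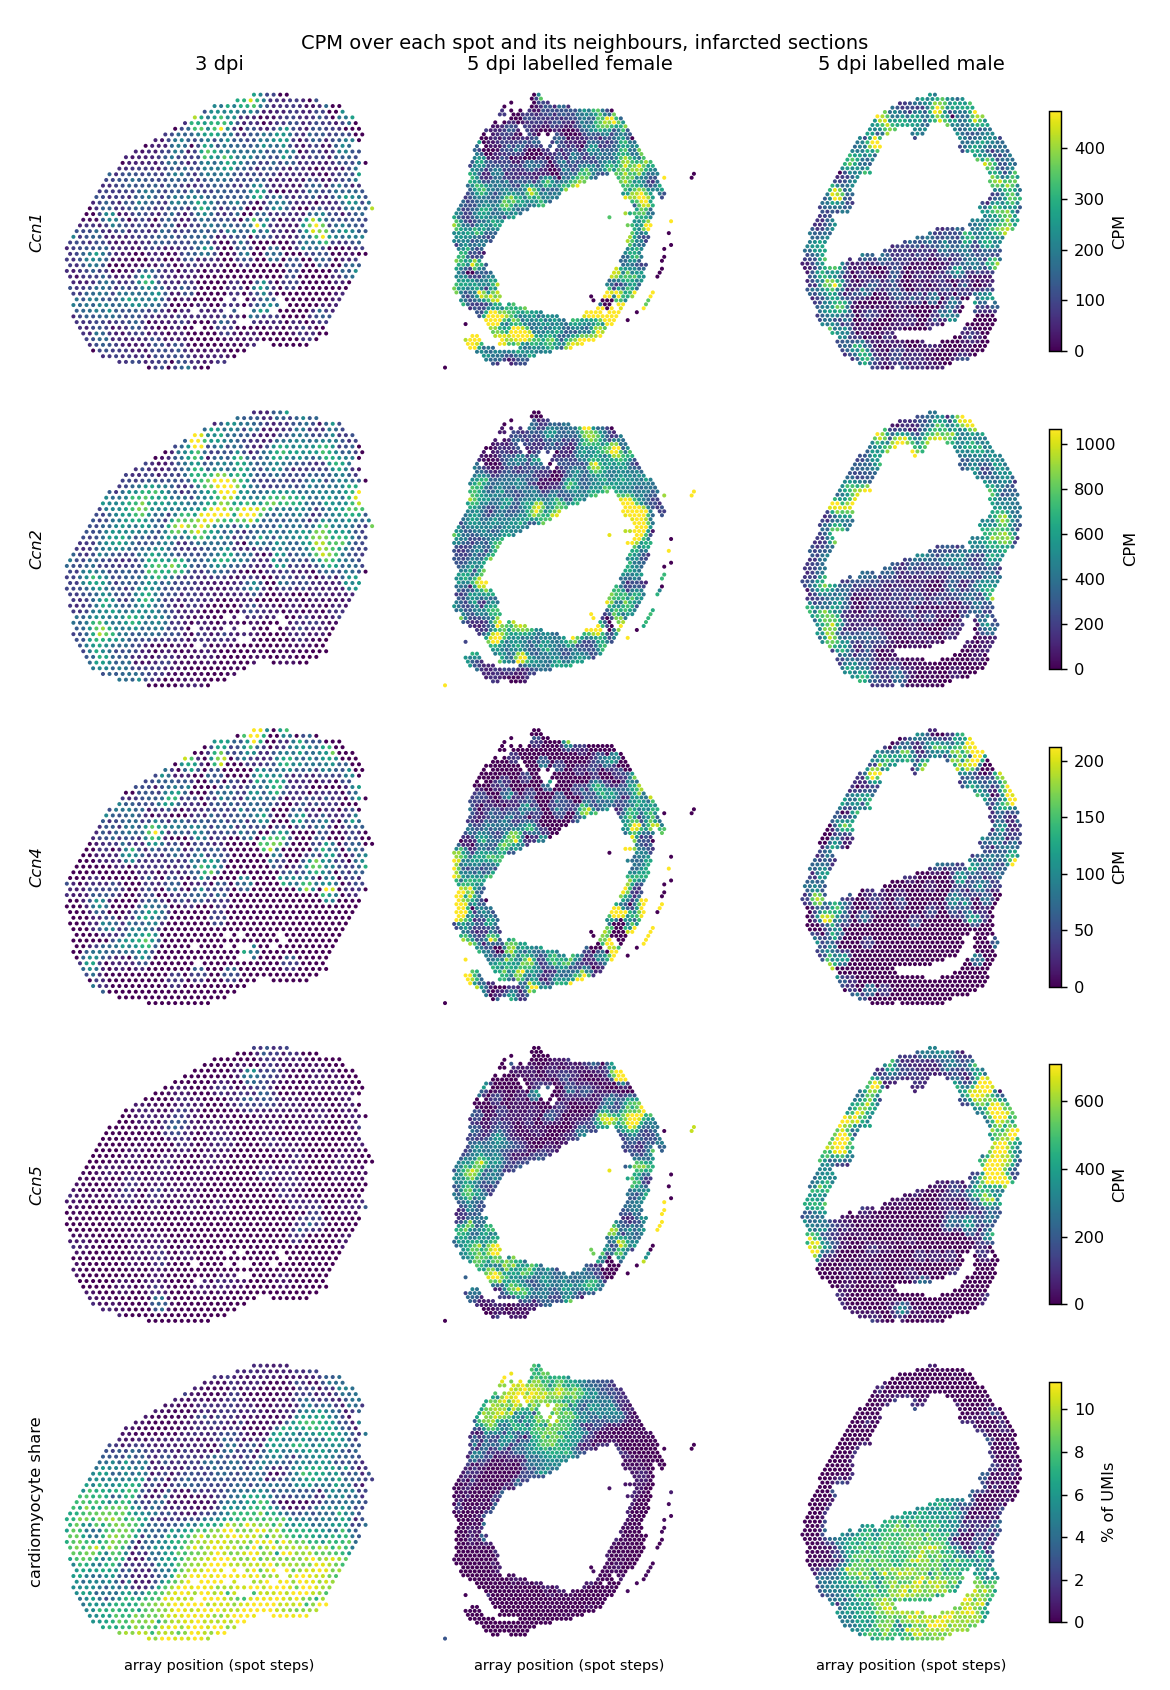
Spots of the 3 infarcted sections at their array positions, coloured by the CPM of each CCN gene over the spot and its direct neighbours, with the cardiomyocyte share in percent in the bottom row. Each row has 1 colour scale, which tops out at the 98th percentile: Ccn5 is dim over the 3 dpi section and bright along the thin infarcted wall of both 5 dpi sections, and Ccn2 reaches into the wall that keeps its cardiomyocyte share.

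The depth of a spot inside the infarct is its distance in steps from spots at or above the share limit. The tissue surface does not count as an edge. As the cardiomyocyte share sets this edge, rim spots (1 to 2 steps) held more of that share than spots over 4 steps inside. The means were 3.33% against 1.44% at 3 dpi, 2.44% against 0.312% in the female-labelled heart and 2.86% against 0.487% in the male-labelled heart. The unmatched levels by depth are therefore a description that follows the same gradient the genes were chosen on. Without matching, Ccn5 in the female-labelled 5 dpi heart stood at 152 CPM in spots 1 to 2 steps inside the edge, 310 CPM at 3 to 4 steps, 384 CPM at 5 to 8 steps and 301 CPM farther in. In the male-labelled heart it stood at 129, 287, 462 and 395 CPM, and at 3 dpi at 24.6, 33.5, 55.8 and 33.6 CPM. Ccn5 was thus lowest at the rim of each infarct, while Ccn2 at the rim (500, 527 and 525 CPM) and beyond 8 steps (423, 542 and 541 CPM) differed less.

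**Figure D4:**
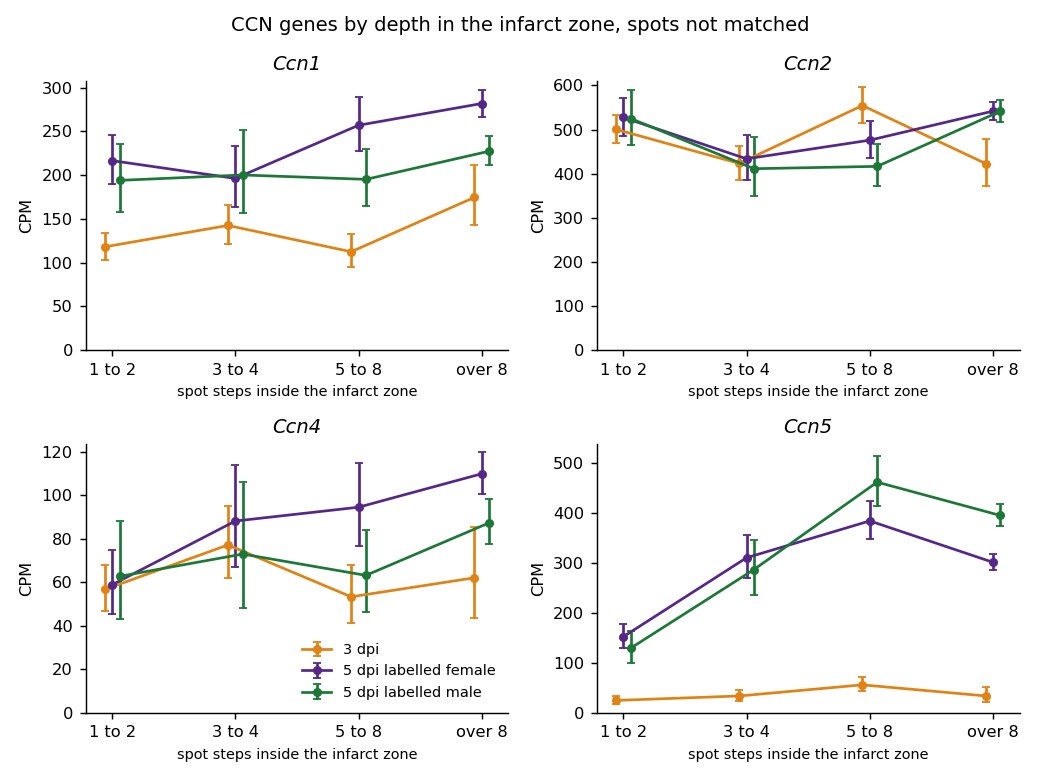
Level of each CCN gene in CPM against the depth of the spots inside the infarct zone, in spot steps from its edge, with a line per infarcted section and bars for exact 95% Poisson intervals. Spots were not matched here. Ccn5 goes from 152 and 129 CPM at the rim of the 5 dpi infarcts to 384 and 462 CPM at 5 to 8 steps, and the Ccn2 lines stay between 411 and 554 CPM.

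To compare rim and core at like cardiomyocyte content, spots 1 to 2 steps inside the edge and spots more than 4 steps inside were drawn in equal numbers from 5 bins of the share within each section. UMIs were summed per class and section, and tested across the 3 infarcted sections by edgeR's quasi-likelihood test with the section as a block. Ccn2 and Ccn5 were lower in the matched rim spots. Of 7628 genes tested, 0.42% passed the test as higher in the rim and 0.184% as lower, which is the background for these 2 of 4 members.

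Matching kept 163 of 342 core spots at 3 dpi, and 75 of 813 and 67 of 533 at 5 dpi. These held more cardiomyocyte RNA than the core as a whole. Over all core spots Ccn2 stood at 512, 530 and 518 CPM, near its 500, 527 and 525 CPM in all rim spots. In matched spots Ccn2 held 476 CPM in the rim and 759 CPM in the core at 3 dpi. At 5 dpi it held 568 and 813 CPM in the female-labelled heart, and 526 and 704 CPM in the male-labelled heart. Its log2 difference was -0.52 (SE 0.11, edgeR adjusted p = 0.0309), lower in 3 of 3 sections. Ccn5 held 26.4 and 32.3 CPM at 3 dpi, 161 and 254 CPM in the female-labelled heart, and 125 and 309 CPM in the male-labelled heart, with a log2 difference of -0.81 (SE 0.18, edgeR adjusted p = 0.0389). Ccn1 (log2 difference -0.22, SE 0.15) and Ccn4 (-0.00, SE 0.20) did not pass.

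Both calls rest on few hearts. They were lost with either 5 dpi section left out, with DESeq2 and without the block, and without matching Ccn2 turned to 0.14 on the log2 scale. At 5 dpi the matched rim still held more cardiomyocyte RNA, at 2.27% against 1.56% of non-mitochondrial UMIs in the female-labelled heart. A match in 20 bins, added after the data were seen, brought this to 1.64% on both sides. There Ccn2 stayed lower by -0.59, and Ccn5 was at -0.49 and no longer passed. Rim spots of the 5 dpi sections also had 0.641 and 0.632 times the smooth muscle markers and 6.33 and 6.32 times the mesothelial markers of core spots, and at 3 dpi they had 1.39 times the fibroblast markers. Their mitochondrial share was higher, at 10.2% against 8.83% of UMIs at 3 dpi, 12.2% against 8.19% in the female-labelled heart and 9.74% against 5.71% in the male-labelled heart. Median UMIs per spot were 6871 against 5023 at 3 dpi, and 7334 against 9222 and 5852 against 8980 at 5 dpi. The part of these in the result was not tested.

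Within the infarct zone, spots in the top and in the bottom tertile of the fibroblast marker share were matched in the same way, with the markers themselves left out of the genes tested. Ccn4 and Ccn5 were higher in the fibroblast-rich spots, whereas Ccn1 and Ccn2 did not pass. Of 9977 genes tested, 3.95% passed as higher and 2.19% as lower.

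Ccn5 held 36.3 CPM in fibroblast-rich and 30.6 CPM in fibroblast-poor spots at 3 dpi, 368 and 252 CPM in the female-labelled 5 dpi heart, and 469 and 251 CPM in the male-labelled heart. Its log2 difference was 0.66 (SE 0.11, edgeR adjusted p = 2.1e-04), or 1.58-fold, and the call was lost without the block. Ccn4 held 71.9 and 44.7 CPM at 3 dpi, 127 and 86.8 CPM in the female-labelled heart, and 95.6 and 77.6 CPM in the male-labelled heart, or 1.43-fold (edgeR adjusted p = 0.00954). The Ccn4 call was lost without the female-labelled 5 dpi heart, as with DESeq2 and without the block.

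For Ccn2 the sections went different ways, with a log2 difference of -0.05 over all 3 (SE 0.09) and values of 427 and 535 CPM at 3 dpi, 484 and 514 CPM in the female-labelled heart, and 554 and 459 CPM in the male-labelled heart. Ccn1 was lower in fibroblast-rich spots at 3 dpi (125 against 142 CPM) and higher in both 5 dpi sections (302 against 249 CPM and 255 against 182 CPM). It passed the test, at 0.35 on the log2 scale, only when the 3 dpi section was left out. The difference of the response between 5 and 3 dpi was 0.52 on the log2 scale for Ccn1 and 0.39 for Ccn2, and neither passed. This test was added after the data were seen, and with 1 heart at 3 dpi its spread between hearts comes from 5 dpi alone. The summed fibroblast markers were 2.20 to 2.65 times higher in the rich spots and the macrophage markers 0.876 to 0.972 times as high. Cardiomyocyte markers were lower in spite of the matching, at 0.899 times at 3 dpi and 0.762 and 0.701 times at 5 dpi. Smooth muscle markers were 1.06 to 1.32 times as high, and mesothelial markers stood at 0.620 times at 3 dpi and 2.93 and 2.78 times at 5 dpi. Mitochondrial transcripts made up 7.45% against 9.62% of UMIs at 3 dpi, and 3.32% against 4.57% and 1.82% against 2.67% at 5 dpi, and median UMIs per spot were 6868 against 5739, 6623.5 against 7540.5 and 6552 against 7925. The part of these measures in the result was not tested.

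Spots rich and poor in macrophage markers, matched likewise, separated Ccn5 from the other members. Ccn1, Ccn2 and Ccn4 were lower in macrophage-rich infarct spots and Ccn5 was higher, so all 4 members passed, where 6.66% of 8337 genes passed as higher and 4.38% as lower.

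Ccn2 held 391 CPM in macrophage-rich and 647 CPM in macrophage-poor spots at 3 dpi, 352 and 766 CPM in the female-labelled 5 dpi heart, and 370 and 686 CPM in the male-labelled heart. The log2 difference was -0.89 (SE 0.12, edgeR adjusted p = 2.3e-07), and the call was lost without the block. Ccn1 held 104 and 162 CPM at 3 dpi, 217 and 399 CPM in the female-labelled heart, and 190 and 274 CPM in the male-labelled heart, with a log2 difference of -0.68 (SE 0.14, edgeR adjusted p = 2.5e-04). The Ccn1 call was lost with the female-labelled heart left out and without the block. The macrophage-rich value was the lower in each section for both genes.

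Ccn5 went the other way: 28.5 against 27.0 CPM at 3 dpi, 350 against 242 CPM in the female-labelled heart, and 496 against 218 CPM in the male-labelled heart. Its log2 difference was 0.80 (SE 0.16, edgeR adjusted p = 1.5e-04). The 3 dpi values rest on 18 and 21 UMIs, so the difference rests on the 5 dpi sections. The test of 5 against 3 dpi, with 1 heart at 3 dpi, gave 0.85 on the log2 scale and did not pass. The call of Ccn5 as higher in macrophage-rich spots was lost with the female-labelled heart left out, with DESeq2 and without the block. Ccn4 was lower by -0.57 on the log2 scale (SE 0.17, edgeR adjusted p = 0.0223), at 61.7 against 69.3 CPM at 3 dpi, 90.5 against 129 CPM and 56.4 against 131 CPM at 5 dpi, but the call was lost in 6 of 10 alternative settings, another random draw of the same spots and either 5 dpi heart left out among them.

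These spots also differed in other markers, in mitochondrial share and in depth. Macrophage markers were 2.93 to 4.17 times higher in the rich spots. Smooth muscle markers were lower (0.529 to 0.765 times), endothelial markers too (0.667 to 0.826 times), and cardiomyocyte markers stood at 0.538 to 0.712 times in spite of the matching. The summed fibroblast markers were 1.11 times as high at 3 dpi and 0.856 and 0.767 times at 5 dpi, although 5 of the 7 single markers were higher in the macrophage-rich spots of each 5 dpi heart. Mesothelial markers summed to 46.4 against 147 CPM and 3.76 against 19.6 CPM at 5 dpi, and were near 0 in both classes at 3 dpi (0 against 3.85 CPM). Mitochondrial transcripts made up 7.67% against 10.1% of UMIs at 3 dpi, 2.62% against 4.65% in the female-labelled heart and 1.08% against 2.12% in the male-labelled heart. Median UMIs per spot were 4492 against 6433 at 3 dpi, and 7598 against 6385 and 7350.5 against 6821 at 5 dpi. With 20 bins the mean cardiomyocyte share per spot of the female-labelled heart was 0.40% on both sides, but the summed cardiomyocyte markers still lay lower in the macrophage-rich spots, at 16564 against 21455 CPM at 3 dpi, 3144 against 4741 CPM in that heart and 1994 against 2563 CPM in the male-labelled heart. In this setting Ccn1, Ccn2, Ccn4 and Ccn5 were at -0.58, -0.81, -0.59 and 0.58 on the log2 scale and all 4 passed. The part of these measures in the differences was not tested.

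**Figure D5:**
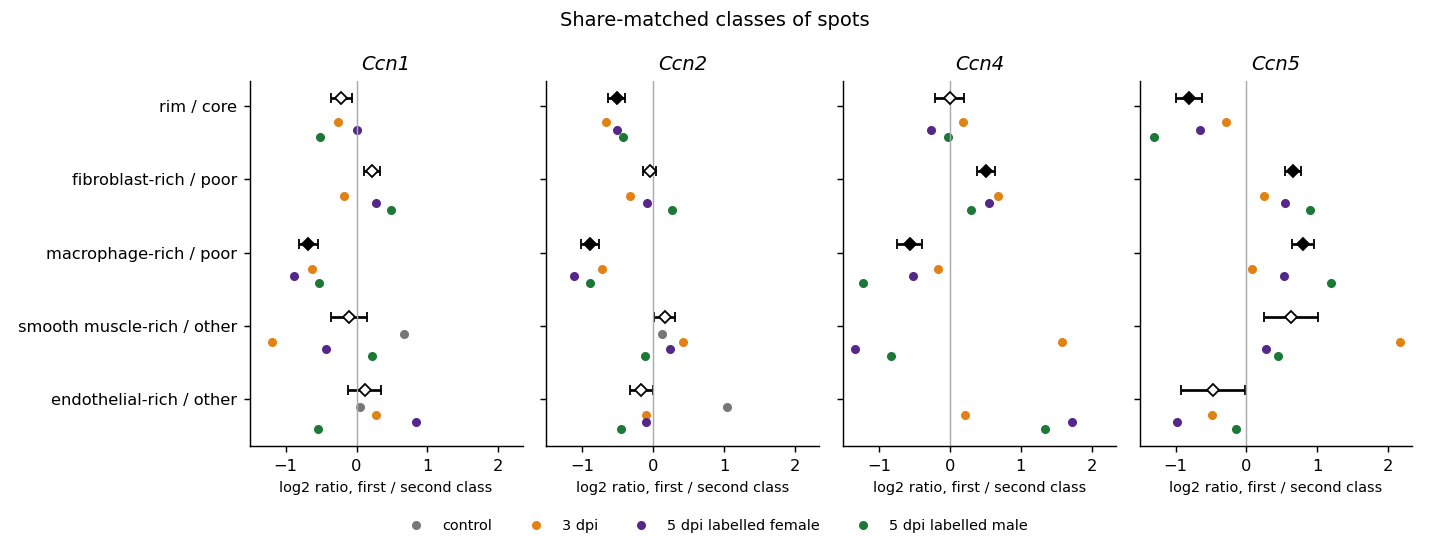
Log2 ratio of each CCN gene between share-matched classes of spots (first over second class), with coloured points for the ratio of CPM in each section and black diamonds for the edgeR estimate, with bars of 1 standard error and filled where the adjusted p was under 0.05. Ratios with 0 UMIs in a class, and those of Ccn4 and Ccn5 in the control, are not drawn. Ccn1, Ccn2 and Ccn4 lie left of 0 and Ccn5 right of 0 in macrophage-rich spots, and no diamond is filled outside the infarct.

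Outside the infarct zone, the 10% of spots richest in smooth muscle or endothelial markers were compared with the others in all 4 sections, the control included. No member passed in either comparison. Of 4940 genes tested, 0.101% passed as higher and 0.0202% as lower in smooth muscle-rich spots, and of 4669 genes 0.0214% and 0% in endothelial-rich spots. By edgeR 0 members passed, where 254 and 294 genes lay under an unadjusted p of 0.05, and DESeq2 called 1 and 0 genes and none of the members.

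Ccn2 had a log2 difference of 0.16 (SE 0.15) in smooth muscle-rich and of -0.17 (SE 0.16) in endothelial-rich spots. Ccn5, at 0.63 (SE 0.38) and -0.47 (SE 0.45), rested on 1 to 17 UMIs per class and section, and Ccn4 was too low to be tested.

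The genes that followed each member most closely were ranked by Pearson's r of log2 (CPM + 1) over 13 units, the control section and the 4 zones of each infarcted section, among 5665 genes of at least 20 CPM. The units share sections and a common gradient of cardiomyocyte RNA, so high r values are general and are given without a p. Ccn1 was followed by Col14a1 (r = 0.979), Aspn (0.978), Sparc (0.976), Tmem119 (0.976) and Fn1 (0.975), several of which encode matrix proteins. Ccn2 was followed by Oaf (0.986), Tspo (0.985), Panx1 (0.980), Lox (0.979) and Dpysl3 (0.979), among them Lox, which encodes the collagen cross-linking enzyme lysyl oxidase.

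Ccn4 was followed by Parva (0.983), Cthrc1 (0.981), Csrp2 (0.978), Chpf (0.974) and Col3a1 (0.972), the last a fibrillar collagen chain. Ccn5 was followed by Ltbp3 (0.964), Fbln5 (0.956), Mfap4 (0.949), Cnn1 (0.949) and Sfrp1 (0.948). Fbln5 and Mfap4 encode elastic fibre proteins, Sfrp1 a secreted Wnt antagonist, and Cnn1 the smooth muscle protein calponin. The 4 members did not have each other as nearest genes: r was 0.939 for Ccn1 and Ccn5, 0.917 for Ccn2 and Ccn4 and 0.835 for Ccn2 and Ccn5, where Ccn5 ranked 608 among the genes like Ccn2.

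Gene lists around the family, which leave the members out, were read in the fit of infarct zone against remote zone. Here 28.2% of 9811 genes passed as higher in the infarct zone and 25.8% as lower, and the median log2 difference of all genes was 0.08. Of 20 YAP and TEAD target genes, 17 were tested, of which 8 were higher and 3 lower, with a median of 0.63. Myof (log2 difference 1.97, SE 0.20) was the highest of these, and F3, which encodes tissue factor (-1.81, SE 0.36), and Ankrd1, a stress gene of cardiomyocytes (-1.54, SE 0.30), were lower, all with edgeR adjusted p of at most 2.7e-04. The list therefore did not move as a block.

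Of 10 genes of the TGF-β response, 9 were tested and 8 were higher, with a median of 1.73. Lox (3.08, SE 0.16) and Ltbp2, a latent TGF-β binding protein gene (2.92, SE 0.23), led it, and none was lower. Of 12 Wnt response genes, 3 were expressed enough to be tested. Nkd2, a Wnt feedback gene, was higher (1.48, SE 0.23) and Ccnd1, which encodes cyclin D1, lower (-0.73, SE 0.26), so this list says little. All 12 genes of CCN receptors were tested and 9 were higher, with a median of 1.25, among them the leukocyte integrin genes Itgb2 (2.66, SE 0.22) and Itgam (2.16, SE 0.24) and the vitronectin receptor subunit gene Itgb3 (2.23, SE 0.36). For the members, the plain ratio of CPM in the infarct zone to that in the remote zone, given without a test, was 2.56, 3.65 and 3.32 for Ccn1 at 3 dpi and in the pair of 5 dpi hearts, 4.28, 2.19 and 3.28 for Ccn2, 5.82, 6.87 and 10.4 for Ccn4, and 2.48, 5.55 and 16.3 for Ccn5.

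The lists gave smaller counts between matched spots. In the rim, 1 of 14 YAP and TEAD targets was lower, Igfbp3 (-1.15, SE 0.25). In macrophage-rich spots 4 of 16 YAP and TEAD targets were lower, 1 was higher and 11 did not pass, with a median of -0.24 beside -0.02 for all genes. Igfbp3 (-1.33, SE 0.18) and Ankrd1 (-1.29, SE 0.14) were among the lower, and Asap1 (0.82, SE 0.25) was the higher. Cardiomyocyte markers were also lower in these spots, and a link of these genes to Ccn1 and Ccn2 was not tested. Of 9 TGF-β genes 2 were lower and 0 higher, with Pmepa1 at -0.44 (SE 0.13). Of the receptor genes 2 were lower, Itgb3 (-1.06, SE 0.29) and Itga5 (-0.95, SE 0.14), and 3 were higher, Itgam (1.21, SE 0.22) and Itgb2 (1.08, SE 0.15), which macrophages express, and the laminin receptor subunit gene Itga6 (0.60, SE 0.19).

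In fibroblast-rich spots the YAP and TEAD list held 2 higher and 2 lower genes of 17, namely Ccdc80 (0.81, SE 0.09), Amotl2 (0.59, SE 0.16), Igfbp3 (-0.97, SE 0.15) and Ankrd1 (-0.76, SE 0.09). In the TGF-β list Ltbp2 (0.77, SE 0.08) and Lox (0.75, SE 0.08) were higher and Tgfbi (-0.38, SE 0.08) was lower, and Nkd2 of the Wnt list was higher (0.84, SE 0.20). Of the receptor genes, Lrp1 was higher (0.28, SE 0.08) and Itgam and Itgb2 were lower. Outside the infarct no gene of the lists passed.

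The other 2 CCN genes of the files were sparse. Ccn3 (also known as Nov) stood at 2.67 CPM in the control, 2.27 CPM at 3 dpi and 7.44 and 6.13 CPM in the pair of 5 dpi hearts, on 10 to 71 UMIs. It was tested between fibroblast-rich and fibroblast-poor spots alone, where it was higher by 1.66 on the log2 scale (SE 0.40, edgeR adjusted p = 0.00941), a call that was lost in 4 of 7 alternative settings. Ccn6 gave 1 UMI over the 4 sections, and its 0 UMIs in the control have an upper 95% limit of 0.986 CPM.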

How the data were processed

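The authors deposited raw UMI counts per gene and spot, made with Space Ranger 1.3.1. Their methods name an Ensembl-based mouse reference with a GFP sequence added, the labels name build mm10, and spots under tissue were chosen by hand. Spots off the marked tissue were left out, as were spots with fewer than 500 UMIs, fewer than 250 genes or over 50% of UMIs from mitochondrial genes. Barcodes are array positions: 129 of 2891 were kept in all 4 sections.

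The members, the marker and pathway lists and the tests were chosen with earlier results of these data known. Named genes were the members, the other CCN genes, the 5 genes most like each member, and at most 3 called genes per list and test, with a few further list genes named after their values were seen. Infarct zone, near border (BZ2, within 2 steps), far border (BZ1, 3 to 4 steps) and remote zone were set from the cardiomyocyte share, and shares of 1 section were matched in 5 bins with random seed 7. Summed counts were tested with edgeR 4.0.16 (limma 3.58.1, R 4.3.3; TMM, default low-count filter, section as a block, Benjamini-Hochberg over all genes, threshold 0.05) and, as an alternative, DESeq2 1.42.0. Hearts are the replicates. The test of 5 against 3 dpi and the 20 bins were added after the data were seen. Figures used matplotlib 3.10.9. Values of 1 gene of the pathway lists are not reported here.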

Additional observations from a re-analysis of the deposited data

Results flagged for a closer look

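A pair of member ratios at 3 dpi had the opposite sign to both 5 dpi sections. Ccn4 in the matched infarct rim was higher than in the core at 3 dpi, by 0.18 on the log2 scale (62 and 43 UMIs). It was lower in the female-labelled 5 dpi heart, at -0.26 (37 and 53 UMIs). In the male-labelled heart it was near equal, at -0.018 (25 and 40 UMIs). The difference between the days was -0.34 on the log2 scale. Ccn1 was lower in fibroblast-rich spots at 3 dpi, by -0.18 on the log2 scale, and higher in both 5 dpi sections, with a difference between the days of 0.52. Neither difference between the days passed the threshold, and 3 dpi is 1 heart.

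In the 5 dpi male-labelled heart, 623 spots of the matrix are not marked as tissue and entered no comparison. They held 170 CPM of Ccn1, 539 CPM of Ccn2, 86.1 CPM of Ccn4 and 171 CPM of Ccn5, each above the control section (32.1, 30.2, 0.267 and 2.67 CPM). Ccn1, Ccn2 and Ccn4 were also at or above their levels on the marked tissue of that section, at 158, 375 and 52.6 CPM, and Ccn5 was below its 226 CPM.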

How the results depend on the processing

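Among 198 values under alternatives, namely the members' differences in the matched comparisons and their ratios of 3 dpi over control, 157 kept their direction and side of the threshold, 25 lost a call, 1 gained one, 11 changed sign and 4, all ratios of 3 dpi over control, moved outside their 95% counting interval. Values that had not passed could not lose a call. Of 10 alternatives per call, Ccn2 and Ccn5 in the rim each passed in 5. In fibroblast-rich spots Ccn4 passed in 7 and Ccn5 in 9. In macrophage-rich spots Ccn1 passed in 8, Ccn2 in 9, Ccn4 in 4 and Ccn5 in 7.

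Levels over the control depend on the denominator. With mitochondrial UMIs counted, the log2 ratio of 5 dpi over control was 3.12 for Ccn1, 4.37 for Ccn2, 8.51 for Ccn4 and 6.98 for Ccn5, and with TMM scaling it was 2.17 for Ccn1, 3.42 for Ccn2 and 6.04 for Ccn5, against 2.59, 3.85, 7.98 and 6.46 as reported. Without cardiomyocyte markers in the denominator Ccn5 gave 6.34. The low over high share difference went to 1.72 for Ccn1 and 2.63 for Ccn4 with mitochondrial UMIs, and to 1.77 for Ccn4 with the lower share limit.

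The matched comparisons depend on the draw and on single hearts, and no cause was tested. For rim against core, 46 genes passed, against 16 by DESeq2, 85 with no filter on low counts, 0 without the block, 2015 without matching, 78 with another random draw, 156 with other class limits and 88 with 20 bins, and 7 to 170 with a section left out. Passing members went from 2 to 0 by DESeq2 and without the block, to 1 without matching and with 20 bins, and to 0 to 2 with a section left out. For fibroblast-rich spots, 612 genes became 152 by DESeq2, 0 without the block and 284 to 902 with a section left out, and passing members 1 by DESeq2, 0 without the block and 1 to 3 with a section left out. For macrophage-rich spots, 920 became 270 by DESeq2, 45 without the block, 2876 without matching and 249 to 817 with a section left out, and members 2 by DESeq2, 0 without the block and 1 to 4 with a section left out. Smooth muscle-rich spots gave 1 by DESeq2, 0 without the block, 15 without matching, 12 with another draw and 2 to 6 with a section left out in place of 6. Endothelial-rich spots gave 0 by DESeq2 and without the block, 8 without matching and with another draw 2 with 20 bins and 0 to 5 with a section left out in place of 1.

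Signs turned for some values. Ccn2 in the rim, which had passed at -0.52, went to 0.14 without matching. Ccn4 in the rim went to 0.13 without the female-labelled 5 dpi heart, 0.12 with other class limits and 0.15 with 20 bins. Ccn2 in fibroblast-rich spots lay between -0.20 and 0.064 with a section left out, positive without the 3 dpi section. Ccn1 in smooth muscle-rich spots lay between -0.29 and 0.15 with a section left out, positive without 3 dpi, and went to 0.052 with another draw, 0.37 with other class limits and 0.0072 with 20 bins. In endothelial-rich spots Ccn1 lay between -0.14, without the female-labelled heart, and 0.42 with a section left out, and Ccn2 to 0.15 with other class limits. No paired analysis between groups was possible, because each section came from a different heart. Classes of spots from the same heart were compared with the section as a block.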
